A study of Mus musculus with 20 samples.

Results

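Wild type splenic B cells were compared after 6 h of anti-IgM and at 0 h, in 4 of the 20 arrays of the series. The 2 arrays of the 6 h group and the 2 of the 0 h group were chosen by the stimulus and genotype their labels give, so no measured value entered the choice. The 6 h cells had received anti-IgM at 10 µg/ml, an antibody against the μ chain that engages the surface receptor of B cells, and the 0 h cells are labelled as unstimulated. Both groups are wild type for TAK1 and carry mb-1 (labelled mb-1/TAK1+/+), the B lineage locus Cd79a whose promoter drives the Cre deleter in this kind of cross. All mice were C57BL/6, 8 to 12 weeks old and of mixed gender. Cells were purified from spleen by magnetic depletion of CD43-bearing cells and cultured in RPMI with 10% FBS. Nothing in the labels tells whether the 0 h cells were cultured at all, so changes of culture and of receptor signalling cannot be told apart here. For comparison the text uses wild type arrays at 1, 3 and 24 h, and TAK1-deleted arrays (mb-1/TAK1f/f) at 6 h and 0 h, again 2 per group.

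A resting B cell that meets antigen is known to pass through an ordered set of programmes. Kinases bound to the receptor open calcium channels and switch on NF-κB, NFAT and MAP kinase pathways, and immediate early genes respond within the first hour. Over the following hours the cell enlarges: it makes ribosomes, nucleotides, lipids and mitochondria before it copies its DNA. The 6 h time point lies in this growth phase, which in mature B cells precedes division.

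Values are log2 RMA signals, which the authors deposited. A gene is called here when limma's adjusted p was below 0.05 over all 11968 genes tested, and rose and fell are written of called genes. Changes are 6 h minus 0 h on the log2 scale ± standard error, from 2 arrays in each group. Standard errors and p-values use the spread between replicates pooled over all 10 groups of the series (20 arrays), not the 6 h and 0 h groups alone. The median standard error was 0.161, and 2 arrays a group set the limit of precision. Replicates correlated across genes at 0.994 at 6 h and 0.983 at 0 h, and genes are not independent replicates. The median absolute difference between replicates was 0.107 at 6 h and 0.227 at 0 h, so the spread was not equal in these groups. The labels do not say whether replicates are separate mice or cultures, so p-values measure the pooled spread between replicates, which may be technical. RMA leaves a background in every value, so folds of genes that are dim in either group can be understated.

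Of the 11968 genes, 5169 (43.2%) were called, 2889 higher (24.1%) and 2280 lower (19.1%) at 6 h. Among these 856 were at least 2-fold higher (7.15%) and 905 at least 2-fold lower (7.56%). For 8264 genes (69.1%) the 6 h and 0 h arrays did not overlap. The median change of all genes was 0.05. Without 0 h replicate 2 the split was 2024 higher and 2213 lower, so which direction held more genes depended on that array. Counts of list members below are read against these shares.

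The cells carried B cell transcripts at both times. Cd79a, a signalling chain of the B cell receptor, read 12.57 and 12.66 at 6 h, against 13.70 and 13.67 at 0 h. Ms4a1, the gene of CD20, read 12.08 and 11.98 at 6 h, against 13.26 and 13.22 at 0 h. Pax5, the B lineage commitment factor, read 11.38 and 11.26 at 6 h, against 12.60 and 12.48 at 0 h. All 3 stayed far above 7.45, the median of all values, and all 3 were lower at 6 h with no overlap. Of 14 pan B cell markers 11 fell and none rose (1 rose with the replicate block), with a median change of -1.01. Their summed linear signal was 61400 to 65500 at 6 h, against 107000 to 117000 at 0 h. In bulk arrays, fewer cells of a type and less RNA per cell cannot be told apart.

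Macrophage transcripts were present at 0 h and mostly fell. Of 23 monocyte or macrophage markers 20 fell and none rose, with a median change of -2.05. Their summed signal was 10000 to 10600 at 6 h, against 50700 to 52700 at 0 h. C1qb, a chain of complement C1q made by tissue macrophages, read 6.94 and 6.91 at 6 h, against 11.82 and 12.07 at 0 h. That is 32.4-fold lower at 6 h (-5.02 ± 0.14, adjusted p = 2.61e-12), the largest fall that the rule for named genes found. The 6 h values lie under 7.45 and the 0 h values far above it. Vcam1, an adhesion molecule of stroma and macrophages, read 7.28 and 7.42 at 6 h, against 11.68 and 11.77 at 0 h. Lyz2, the lysozyme gene of myeloid cells, read 9.17 and 9.14 at 6 h, against 12.76 and 12.86 at 0 h.

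Markers of other blood cells also fell in large part. Median changes were -1.37 for dendritic, -1.14 for NK, -0.89 for neutrophil, -0.76 for T cell, -0.55 for erythroid and -0.21 for platelet markers, beside -1.01 for pan B cell markers. Of 13 dendritic cell markers 10 fell and 1 rose. The fallers included Cd209a (-4.97 ± 0.20), a lectin gene, and Clec9a (-3.40 ± 0.31), a receptor of cross-presenting dendritic cells. The 1 that rose, Bst2, is also an interferon-induced gene (0.88 ± 0.11). Of 16 neutrophil markers 12 fell, among them the chemokine receptor gene Cxcr2 (-2.91 ± 0.23). The 1 higher neutrophil marker was Lcn2 (1.18 ± 0.40), which encodes an iron-binding protein, and its call was lost without 6 h replicate 1 or 0 h replicate 2. Of 11 NK cell markers 9 fell, with the receptor gene Ncr1 at -2.24 ± 0.30, and of 13 T cell markers 8 fell, with Cd4 at -1.42 ± 0.24. Of 12 erythroid markers 7 fell, led by the carbonic anhydrase gene Car1 (-3.83 ± 0.21), and 4 did without 6 h replicate 1, without 6 h replicate 2 or without 0 h replicate 2. None of the NK, T or erythroid markers rose. Summed signals were 8480 to 9350 at 6 h against 25100 to 25300 at 0 h for dendritic cells, and 7500 to 8740 against 12500 to 14700 for neutrophils. They were 3880 to 4320 at 6 h against 8410 to 10200 at 0 h for NK cells, 6700 to 7490 against 10800 to 13800 for T cells, and 2150 to 2190 against 6810 to 7000 for erythroid cells. The part of these cells in the falls of other genes was not tested.

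**Figure D1:**
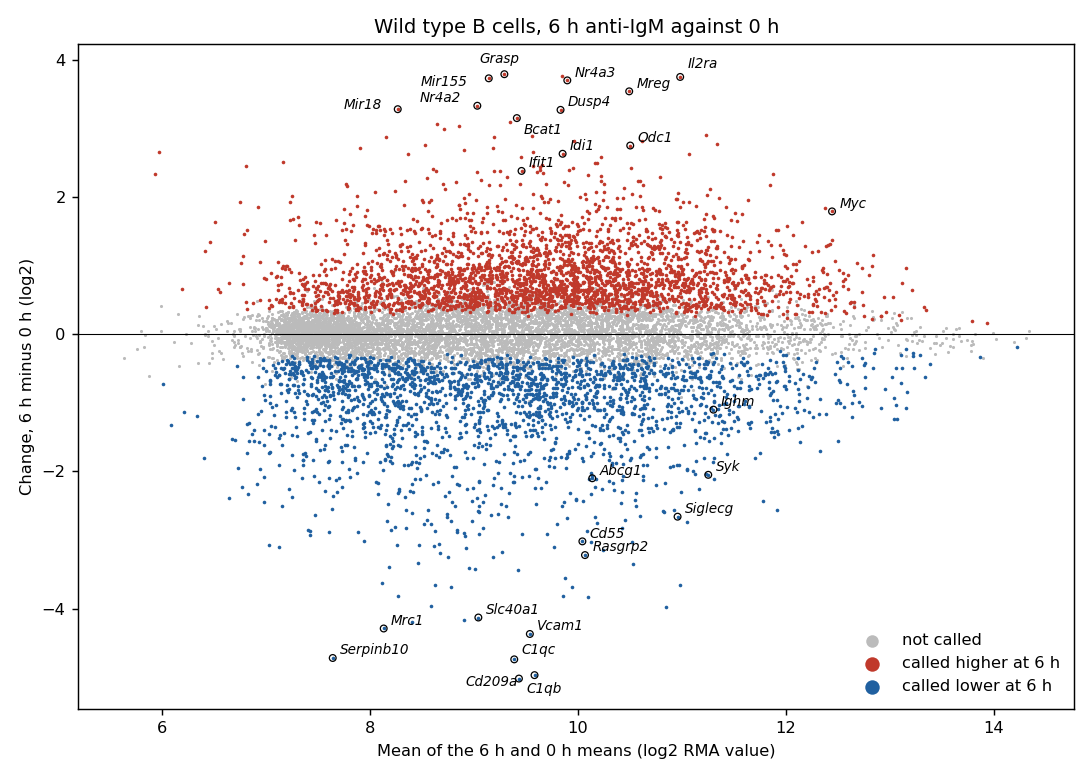
Each point is a gene, with the mean of its 6 h and 0 h levels (log2 RMA value) on the x axis and its change, 6 h minus 0 h (log2), on the y axis. Red genes were called higher, blue genes lower and grey genes not called. The farthest points below 0 include the macrophage genes C1qb and C1qc, and those above 0 include Grasp, Il2ra and Nr4a3.

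The 15 largest rises included genes of varied function. Il2ra, which encodes the α chain of the interleukin 2 receptor, read 12.90 and 12.82 at 6 h, against 9.46 and 8.77 at 0 h. This was a 13.4-fold rise (3.75 ± 0.25, adjusted p = 1.17e-08). Lrrc32, the gene of the TGF-β docking protein GARP, read 11.84 and 11.61 at 6 h, against 8.16 and 7.78 at 0 h (3.76 ± 0.26). Grasp, a scaffold gene, read 11.28 and 11.10 at 6 h, against 7.65 and 7.16 at 0 h (3.79 ± 0.24). In each the 6 h arrays stood more than 2 log2 units above both 0 h arrays. Others among the 15 largest rises were Mreg (3.54 ± 0.20), Bcat1, a branched-chain amino acid transaminase (3.15 ± 0.16), the clock repressor gene Ciart (3.09 ± 0.30), Utf1 (3.07 ± 0.34), Acod1, which makes itaconate (3.04 ± 0.14), and the small heat shock gene Hspb1 (2.99 ± 0.35).

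The remaining large falls were partly in genes that the marker lists do not hold. The part of macrophages and other blood cells in these falls was not tested. Serpinb10 read 5.21 and 5.36 at 6 h, against 10.11 and 9.89 at 0 h (-4.72 ± 0.22). The changes were -4.29 ± 0.16 in the mannose receptor gene Mrc1 and -3.81 ± 0.23 in the eosinophil chemokine receptor gene Ccr3. Slc40a1, the iron exporter, fell by 4.13 and the haem oxygenase gene Hmox1 by 2.87; both stand on the macrophage list, whose summed level is given above. Pld4, an endosomal nuclease gene, read 8.99 and 8.73 at 6 h, against 12.93 and 12.73 at 0 h, a fall of 3.97.

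**Figure D2:**
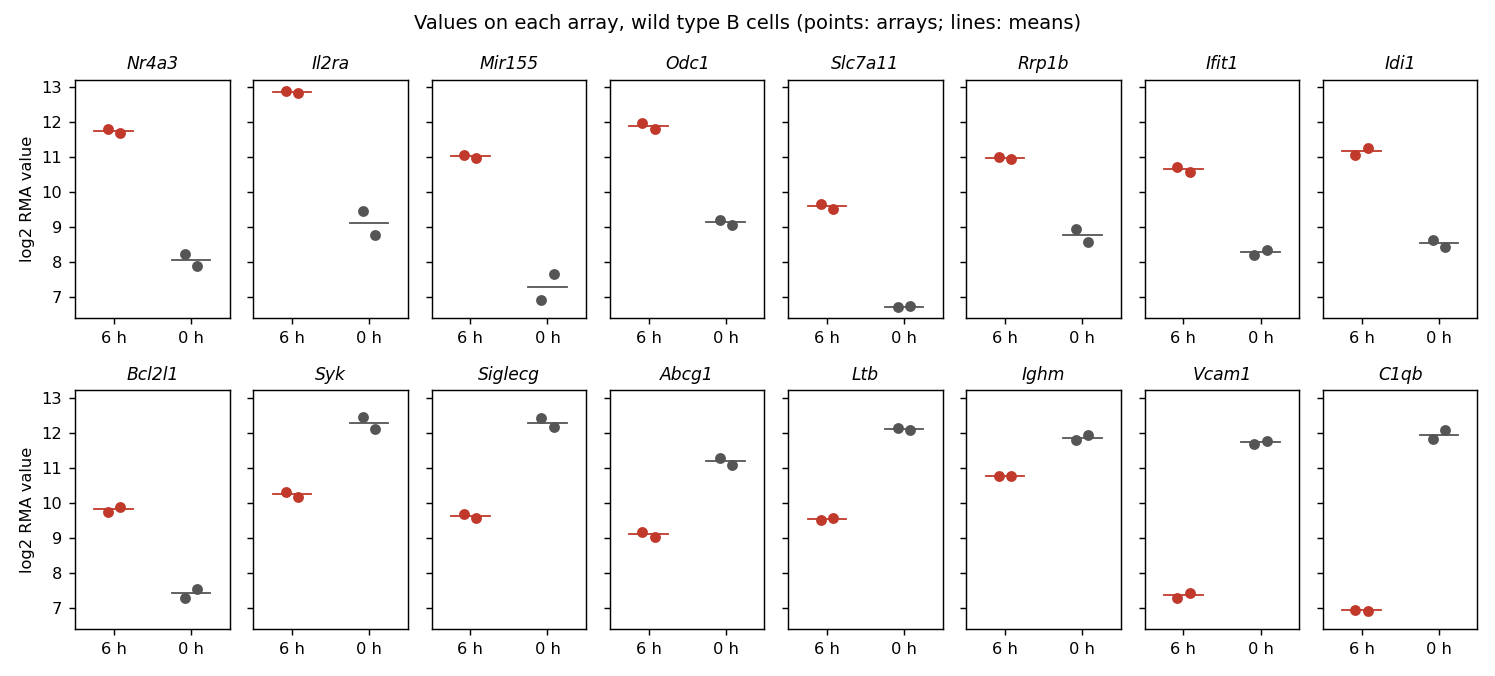
Log2 RMA values on each wild type array for 16 genes, with 6 h in red at the left and 0 h in grey at the right of each panel. Points are arrays and lines are group means. In all 16 panels the 6 h and 0 h arrays do not overlap, from Nr4a3 (11.80 and 11.70 against 8.23 and 7.87) to C1qb (6.94 and 6.91 against 11.82 and 12.07). The 16 genes were picked after their values were seen, and 69.1% of all genes tested also show no overlap.

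Among the steepest rises were some microRNA genes. MicroRNAs are short RNAs that pair through their seed (bases 2 to 8) with messenger RNAs. The mature forms of 6 are shown, from RefSeq (GRCm38.p6), because their genes rose most among the microRNA genes tested, with the seed in capitals.
mmu-miR-155-5p: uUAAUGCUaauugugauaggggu
mmu-miR-18a-5p: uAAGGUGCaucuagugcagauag
mmu-miR-17-5p: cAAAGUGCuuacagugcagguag
mmu-miR-19a-3p: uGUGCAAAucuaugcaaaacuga
mmu-miR-19b-3p: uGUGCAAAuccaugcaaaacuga
mmu-miR-146a-5p: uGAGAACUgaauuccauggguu

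The miR-155 form lies at chr16:84714143-84714165 (+) and the miR-146a form at chr11:43374435-43374456 (-). The other 4 come from 1 cluster whose hairpins listed here span chr14:115043671-115044391 (+), the miR-17 to miR-92 cluster with host gene Mir17hg. Within it miR-19a-3p and miR-19b-3p share the seed GUGCAAA, while miR-17-5p and miR-18a-5p have the seeds AAAGUGC and AAGGUGC. The array reads RNA of the hairpin or its host transcript, not the mature form.

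Mir155, a microRNA gene of activated lymphocytes, read 11.05 and 10.98 at 6 h, against 6.90 and 7.66 at 0 h. The 13.3-fold rise (3.73 ± 0.28, adjusted p = 3.92e-08) was among the 15 largest of all genes. Mir18 read 9.98 and 9.84 at 6 h, against 6.97 and 6.29 at 0 h (3.28 ± 0.35, adjusted p = 1.72e-06). Both genes were near or under 7.45 at 0 h and well above it at 6 h. Mir18 already read 9.19 and 8.81 at 1 h, then 10.58 and 9.41 by 3 h.

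The other cluster members were chosen after their values were seen. They were Mir19a (2.65 ± 0.35), Mir19b-1 (2.45 ± 0.26), Mir17 (1.93 ± 0.25) and the host Mir17hg (1.87 ± 0.17), and all 4 rose. Probe sets of genes in 1 transcript are not independent. Mir146, which NF-κB is known to induce, read 7.35 and 6.87 at 6 h, against 4.70 and 4.84 at 0 h (2.34 ± 0.34). Of 88 microRNA genes tested 17 rose and none fell, with a median change of 0.07, and 12 to 15 rose with any 1 array left out. With the replicate number as a block 19 rose and 4 fell. Over all genes tested 24.1% rose and 19.1% fell, with a median change of 0.05. MicroRNA genes as a set therefore did not rise more often than other genes.

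Genes of ribosome assembly rose almost without exception. Of 53 tested, 51 rose and none fell, with a median change of 1.50 against 0.05 for all genes. Rrp1b, an rRNA processing factor, read 11.01 and 10.94 at 6 h, against 8.94 and 8.58 at 0 h (2.22 ± 0.15, adjusted p = 1.20e-08). Polr1b, the second largest subunit of RNA polymerase I, read 12.39 and 12.32 at 6 h, against 10.61 and 10.14 at 0 h (1.98 ± 0.19). Nhp2 and Nop58, parts of the snoRNA particles that modify rRNA, rose by 2.08 and 1.87. In none of these 4 genes did the arrays of both times overlap, which also held for 69.1% of all genes tested.

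The genes of the ribosome's own proteins gave another picture. Of 28 cytosolic ribosomal protein genes 5 rose and none fell, with a median change of -0.02 (0.04 with each array centred on its median). The highest were Rps27l (1.31 ± 0.15), a p53-inducible paralogue, and Rpl12 (1.26 ± 0.18). With 0 h replicate 2 left out 2 rose, and with 6 h replicate 1 left out 3 did. Many of these probe sets read high at both times, such as Rplp0 with 13.95 and 13.84 at 6 h, against 13.73 and 13.67 at 0 h, and near-identical pseudogenes can share their probes.

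Other parts of the translation apparatus moved with ribosome assembly. Of 24 RNA polymerase III and tRNA modification genes 17 rose, with the tRNA methyltransferase gene Mettl1 at 2.42 ± 0.22 and the pseudouridine synthase gene Pus7 at 2.39 ± 0.17. The 1 lower member was Maf1, the repressor of RNA polymerase III (-0.39 ± 0.14, adjusted p = 0.0294), a call lost with arrays centred on their median and without 6 h replicate 1 or 0 h replicate 2. Of 22 aminoacyl-tRNA synthetase genes 19 rose and none fell (median 1.13), among them Lars (1.53 ± 0.17) and Eprs (1.52 ± 0.15). Of 33 initiation and elongation factors 21 rose, including Eif2b3, a subunit of the exchange factor for eIF2 (1.90 ± 0.17), and the cap-binding protein gene Eif4e (1.12 ± 0.16). Pdcd4, an inhibitor of the helicase eIF4A, was the 1 lower member (-0.87 ± 0.25, adjusted p = 0.0103), a call lost without 6 h replicate 2 or 0 h replicate 1.

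Most genes of mitochondrial import, nuclear transport, the CCT chaperonin and the proteasome rose, while those of the endoplasmic reticulum and heat shock chaperones did not move as groups. Of 33 genes of mitochondrial import, chaperonins and ribosome 32 rose and none fell (median 1.01), with the inner membrane import gene Timm8a1 at 2.09 ± 0.21 and the mitochondrial Hsp70 gene Hspa9 at 1.52 ± 0.11. Of 32 nuclear transport genes 26 rose and none fell (median 0.82), with the importins Ipo4 (1.80 ± 0.17) and Ipo5 (1.62 ± 0.12) and the GTPase gene Ran (1.39 ± 0.10). Of 14 CCT chaperonin and prefoldin genes 11 rose (Cct8 1.25 ± 0.16). Pfdn5 was called lower (-0.45 ± 0.17, adjusted p = 0.0493), and that call was lost under several settings. Of 31 genes of endoplasmic reticulum chaperones and the unfolded protein response 8 rose (25.8%) and 5 fell (16.1%), with a median of 0.06, close to the 24.1% and 19.1% of all genes. The oxidase gene Ero1a rose (1.22 ± 0.18) and so did Hspa5, the BiP chaperone (0.62 ± 0.08), while the related oxidase gene Ero1b fell (-1.69 ± 0.16). With the replicate block 9 fell, and without 0 h replicate 2 4 rose.

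Of 39 proteasome genes 33 rose and 2 fell, with a median of 0.79. Psmd1, a subunit of the regulatory particle, read 11.97 and 11.96 at 6 h, against 10.81 and 10.62 at 0 h (1.25 ± 0.13). The 2 that fell were the immunoproteasome subunits Psmb10 and Psmb8, which replace standard catalytic subunits in antigen-presenting cells. Psmb10 read 10.33 and 10.31 at 6 h, against 11.02 and 10.88 at 0 h (-0.64 ± 0.14). Psmb8 fell by 0.42, a call lost without 6 h replicate 1 or 0 h replicate 1 and with arrays centred.

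**Figure D3:**
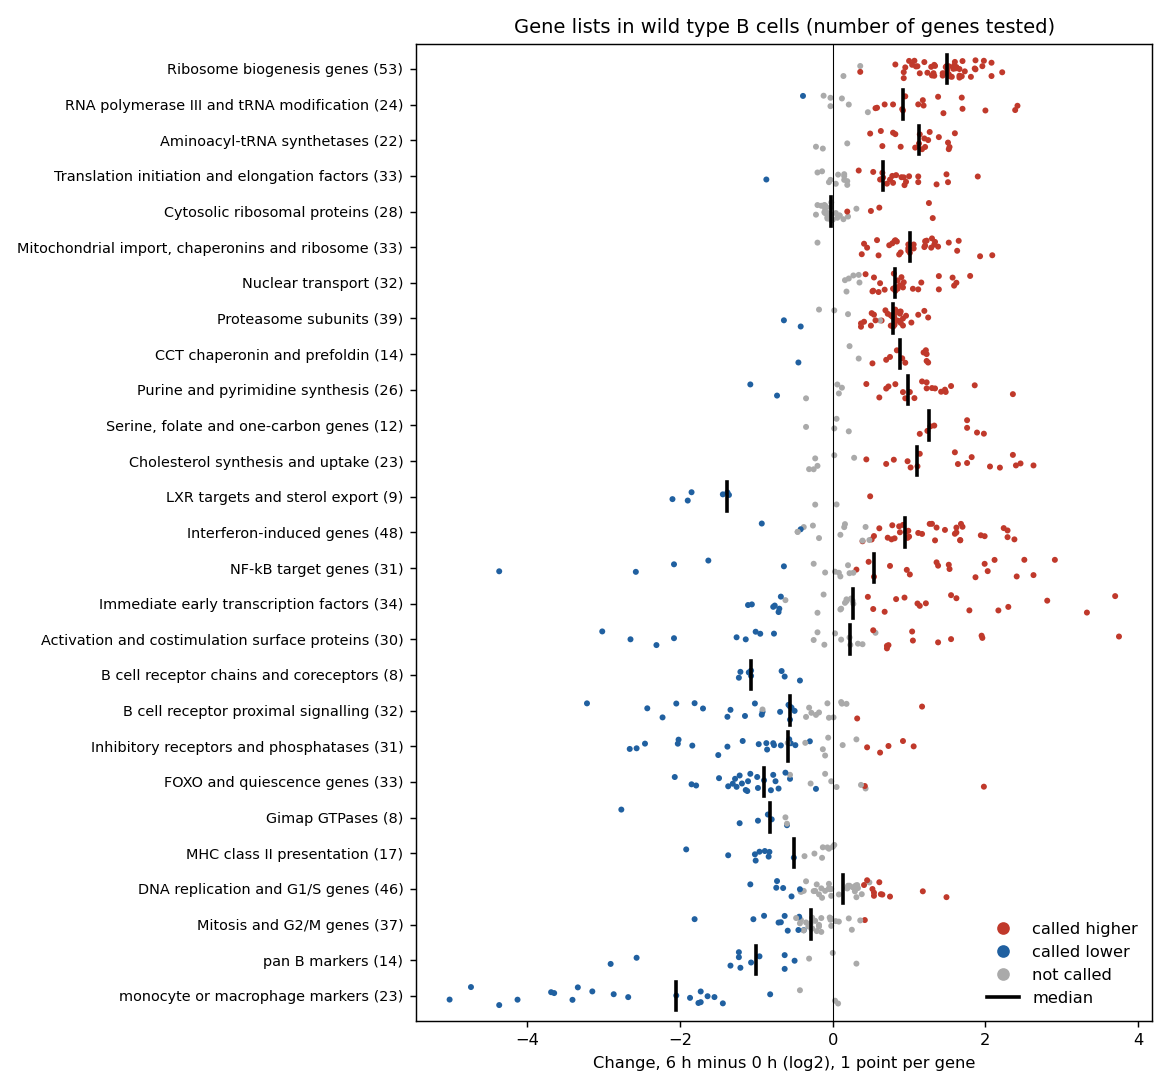
Each row is a gene list and each point 1 of its genes, placed by its change, 6 h minus 0 h (log2). Red points were called higher, blue points lower and grey points not called; black bars are medians, and numbers of genes tested stand in brackets. Ribosome biogenesis has its median at 1.50, cytosolic ribosomal proteins at -0.02 and macrophage markers at -2.05.

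Genes that make building blocks rose broadly. Of 26 purine and pyrimidine synthesis genes 20 rose and 2 fell, led by the CTP synthase gene Ctps, which read 10.23 and 10.18 at 6 h, against 7.94 and 7.76 at 0 h (2.36 ± 0.19). Cad, the first enzyme of pyrimidine synthesis, rose by 1.55, and Ppat, the first committed step of purine synthesis, by 1.48. The 2 that fell were Rrm2, the ribonucleotide reductase subunit that makes deoxynucleotides (-1.08 ± 0.20), and Ctps2 (-0.73 ± 0.13). Of 12 serine, folate and one-carbon genes 8 rose and none fell (1 fell with the replicate block), all 8 at least 2-fold, with Psat1 of serine synthesis at 1.98 ± 0.21 and the mitochondrial folate gene Mthfd2 at 1.76 ± 0.12. Psph, Mtr and Cbs, at 0.02, 0.05 and 0.21, were not called.

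Odc1 and Srm, which make putrescine and spermidine, rose steeply. Odc1 read 11.97 and 11.79 at 6 h, against 9.21 and 9.05 at 0 h (2.75 ± 0.21, adjusted p = 4.75e-08), and Srm read 13.30 and 13.29 at 6 h, against 11.55 and 11.36 at 0 h (1.84 ± 0.15). Sat1, which breaks polyamines down, was lower (-0.57 ± 0.17, adjusted p = 0.0106), a call lost without 6 h replicate 2 or 0 h replicate 2. In all 5 of 8 polyamine genes rose, and 3 did without 6 h replicate 1.

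Transporters of amino acids split by gene. Of 18, 10 rose and 4 fell. Slc7a11, the cystine carrier, read 9.67 and 9.51 at 6 h, against 6.70 and 6.74 at 0 h (2.87 ± 0.19). Slc7a5, the carrier of leucine and other large neutral amino acids, read 13.10 and 13.00 at 6 h, against 10.75 and 10.67 at 0 h (2.34 ± 0.10). Slc7a8 (-1.88 ± 0.23) and Slc43a2 (-1.83 ± 0.23), which also carry neutral amino acids, fell. Without 6 h replicate 2 or 0 h replicate 1 the fallers numbered 2.

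In glucose metabolism 12 of 25 genes rose and 4 fell, and 8 fell with the replicate block. The lactate carrier gene Slc16a1 read 10.89 and 10.78 at 6 h, against 8.71 and 8.26 at 0 h (2.35 ± 0.21). Hexokinase Hk2 rose by 1.40, phosphofructokinase Pfkp by 1.38 and lactate dehydrogenase Ldha by 1.16. The transporter gene Slc2a3 fell (-0.90 ± 0.18), as did the myeloid hexokinase gene Hk3 (-0.89 ± 0.12). Slc2a6, a glucose transporter of lysosomes, rose by 1.29. Of 32 citrate cycle and respiratory chain genes 15 rose and 1 fell (9 rose without 6 h replicate 1, and 2 fell with the replicate block). The 1 lower gene was Idh1, the cytosolic isocitrate dehydrogenase, which read 7.45 and 7.49 at 6 h, against 9.29 and 9.39 at 0 h (-1.87 ± 0.17).

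Sterol synthesis rose and sterol export fell. Cells make cholesterol when the factor SREBP-2 is active, and export it through transporters that the nuclear receptor LXR induces. Of 23 genes of cholesterol synthesis and uptake 17 rose and none fell, with a median change of 1.11 (2 fell with the replicate block, and 1 without 0 h replicate 2). Idi1, the isopentenyl diphosphate isomerase, read 11.06 and 11.27 at 6 h, against 8.63 and 8.44 at 0 h (2.63 ± 0.22, adjusted p = 1.42e-07). Hmgcs1, which condenses acetyl units for the pathway, read 11.29 and 11.40 at 6 h, against 9.24 and 9.08 at 0 h (2.19 ± 0.15). The 6 h arrays of both genes lay more than 2 log2 units above the 0 h arrays. Srebf2, the gene of SREBP-2, rose by 0.70.

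Of 9 LXR target and sterol export genes 6 fell and 1 rose, with a median of -1.38. Abcg1, a sterol exporter, read 9.16 and 9.02 at 6 h, against 11.29 and 11.09 at 0 h (-2.10 ± 0.15, adjusted p = 2.02e-08). Mylip, the ligase that degrades the LDL receptor, read 9.69 and 9.74 at 6 h, against 11.67 and 11.57 at 0 h (-1.90 ± 0.11). Abca1 fell by 1.38 and Nr1h3, the LXRα gene, by 1.44. Lpcat3 was the 1 member called higher (0.49 ± 0.17, adjusted p = 0.0277), and the call was lost without 6 h replicate 1, 6 h replicate 2 or 0 h replicate 2. Macrophages also express Abca1, Abcg1 and Nr1h3, and the summed signal of 23 macrophage markers was lower at 6 h in the same arrays, as given above; its part in these falls was not tested. Of 22 fatty acid and phospholipid genes 9 rose and none fell (3 fell with the replicate block), with the fatty acid synthase gene Fasn at 1.42 ± 0.11 and acetyl-CoA carboxylase Acaca at 1.38 ± 0.12.

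Interferon-induced genes were at their wild type peak at 6 h among the 5 times. These antiviral genes are known to be switched on when a cell senses interferon. Of 48 tested, 35 rose and 2 fell from the 0 h level, with a median change of 0.94. With the replicate block 5 fell, and 1 did without 6 h replicate 1 or 0 h replicate 1. Ifit1, which binds foreign RNA, read 10.72 and 10.58 at 6 h, against 8.20 and 8.34 at 0 h (2.38 ± 0.15, adjusted p = 8.81e-09). Rsad2, the viperin gene, read 10.58 and 10.37 at 6 h, against 8.30 and 8.06 at 0 h (2.29 ± 0.20). Both were at least 2 log2 units above the 0 h arrays on each 6 h array. Usp18, a brake on interferon receptor signalling, rose by 2.29, Oasl1 by 2.24 and Rtp4 by 1.94.

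The 2 interferon-induced genes that fell were Gbp3 (-0.93 ± 0.18) and Psmb8, given above. Among 22 interferon regulators and sensors 7 rose and 7 fell, and 4 fell without 0 h replicate 1. Irf7, the master factor of the response, rose (1.27 ± 0.20), and Irf9 was called with the replicate block alone (0.43 ± 0.25, adjusted p = 0.189, and 0.00292 with the block). Sting1, the sensor of cyclic dinucleotides, read 10.26 and 10.16 at 6 h, against 12.09 and 12.03 at 0 h (-1.85 ± 0.21), and Irf2, a repressor of the response, fell by 1.13.

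The stretches before 4 of these genes are shown because they hold the interferon-stimulated response element, searched on both strands as a pair of GAAA blocks with 2 free bases between them. They are RefSeq promoters (GRCm38.p6) in the direction of the gene, and end at or before the base ahead of its start. Capitals mark each match; a match on the opposite strand shows as a pair of TTTC blocks.
Ifit1, chr19:34640749-34640888 (+): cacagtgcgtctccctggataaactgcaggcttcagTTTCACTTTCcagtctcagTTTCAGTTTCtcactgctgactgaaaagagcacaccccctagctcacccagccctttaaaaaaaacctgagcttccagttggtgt
Rsad2, chr12:26456453-26456592 (-): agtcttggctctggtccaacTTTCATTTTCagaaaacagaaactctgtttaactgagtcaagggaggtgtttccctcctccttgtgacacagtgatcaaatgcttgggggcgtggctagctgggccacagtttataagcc
Cxcl10, chr5:92348983-92349122 (-): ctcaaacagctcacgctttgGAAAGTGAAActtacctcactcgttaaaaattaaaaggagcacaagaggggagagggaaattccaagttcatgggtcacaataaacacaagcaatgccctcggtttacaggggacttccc
Ifit3, chr19:34583353-34583492 (+): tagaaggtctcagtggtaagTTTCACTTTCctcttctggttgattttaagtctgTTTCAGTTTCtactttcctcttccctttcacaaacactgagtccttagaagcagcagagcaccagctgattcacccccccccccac

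The match begins 104 and 85 bases before the start in Ifit1, 120 in Rsad2, 213 in Cxcl10, and 156 and 122 in Ifit3. In the 300-base promoters (250 bases before the start and 50 after), 20 of the 38 interferon-induced genes with an entry held a match (52.6%), against 359 of 9586 tested genes (3.75%). Among the list members called higher 15 of 26 held it (57.7%), a share near that of the whole list. Over all 32851 RefSeq promoters the share was 3.44%. Cxcl10, a chemokine gene, read 10.73 and 10.56 at 6 h, against 8.70 and 8.61 at 0 h (1.99 ± 0.48, adjusted p = 0.00312). Ifit3 rose by 1.62, and its near-identical neighbour Ifit3b can share its probes. A match describes letters and shows no binding.

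Other strings, of 8 in all, were searched in the same promoters on both strands, chosen with the results known. The sterol regulatory element TCACNCCAC was in 1 of 18 genes of cholesterol synthesis (5.56%), against 1.40% of tested genes. That gene is Hmgcs1.
Hmgcs1, chr13:119690211-119690350 (+): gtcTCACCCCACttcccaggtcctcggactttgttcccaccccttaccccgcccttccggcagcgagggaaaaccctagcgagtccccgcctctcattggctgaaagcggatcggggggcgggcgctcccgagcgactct
CCAATCAG, a form of the CCAAT box, was in 6 of the same 18 genes (33.3%), against 6.29% of tested genes. The E-box CACGTG, which Myc binds, was in 8 of 48 ribosome biogenesis genes (16.7%), against 11.7% of tested genes. Its share was higher in cholesterol genes, 5 of 18 (27.8%), and was 12.5% in NF-κB targets (3 of 24) and 2.63% in interferon-induced genes (1 of 38). Among 24 NF-κB targets 3 held the first of the κB consensus strings searched (12.5%, against 0.563% of tested genes) and 2 the other (8.33%, against 0.501%), and a site can match both. Of the 13 NF-κB targets called higher, 1 held the first (7.69%) and 2 the other (15.4%). The STAT string TTCNNNGAA was in 8 of 38 interferon-induced genes (21.1%, against 8.24% of tested genes). It was in a larger share of NF-κB targets, 7 of 24 (29.2%), and in 7 of 48 ribosome biogenesis genes (14.6%) and 1 of 18 cholesterol genes (5.56%). Among members called higher it was in 6 of 26 interferon-induced genes (23.1%) and in 1 of 13 NF-κB targets (7.69%). The ATF string TGACATCA was in none of the interferon-induced or ribosome biogenesis genes, in 1 cholesterol gene (5.56%) and in 1 NF-κB target (4.17%), against 2.12% of tested genes.

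**Figure D4:**
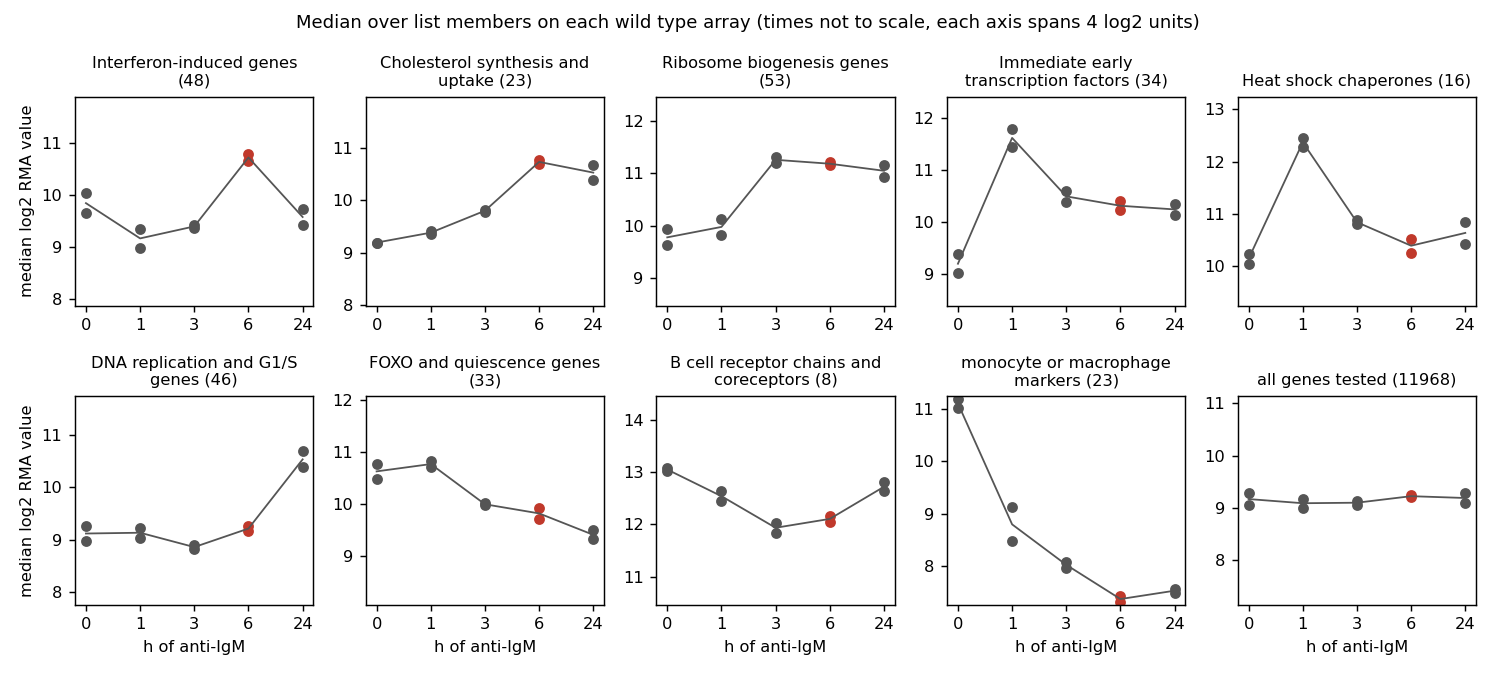
Median log2 RMA value over the members of each list on each wild type array at 0, 1, 3, 6 and 24 h of anti-IgM, with 6 h in red; lines join group means, times are not to scale and every axis spans the same number of log2 units. Interferon-induced genes are highest at 6 h (10.78 and 10.66), immediate early genes at 1 h (11.79 and 11.44), and DNA replication genes at 24 h (10.69 and 10.38).

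The 6 h state differed from the wild type states before and after it, and these contrasts share the 6 h arrays. Against 1 h, 5499 genes (45.9%) were called, 3208 higher (26.8%) and 2291 lower (19.1%) at 6 h. Against 3 h, 1042 (8.71%) were called, 698 higher (5.83%) and 344 lower (2.87%). With the replicate block these were 2126 and 974, with quantile normalization repeated 978 and 760, and 291 to 504 genes in all were called with any 1 of the 4 arrays left out. Against 24 h, 2321 (19.4%) were called, 1241 higher (10.4%) and 1080 lower (9.02%), which became 2676 and 1874 with the block. Without 6 h replicate 1 the 2321 became 1299, and without 6 h replicate 2 they became 1494.

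Interferon-induced genes set 6 h apart from each neighbouring time. Against 1 h 41 of 48 were higher at 6 h, against 3 h 44 and against 24 h 42, with medians of 1.58, 1.66 and 1.27. Against 24 h 1 was lower at 6 h, and against 1 and 3 h none was. Over time the median level of the list was 10.04 and 9.65 at 0 h, then 9.35 and 8.99 at 1 h, then 9.43 and 9.37 at 3 h, then 10.78 and 10.66 at 6 h, then 9.74 and 9.42 at 24 h. The 6 h arrays are above all other wild type arrays. The largest rises from 3 h were in Slfn5 (2.73 ± 0.17), Usp18 (2.40 ± 0.15), Eif2ak2, the kinase PKR (2.36 ± 0.29), Mx1 (2.34 ± 0.19) and Trim30d (2.33 ± 0.19), and Rsad2 was 2.91 ± 0.20 higher than at 24 h.

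Cholesterol genes climbed between 3 and 6 h and stayed up. Against 3 h 15 of 23 were higher at 6 h and none lower (median 0.91), and 11 or 12 were with 1 array left out. Against 24 h none was higher and 2 were lower (4 and 3 with the replicate block, and 1 lower with any 1 array left out). Idi1 read 10.34 and 10.18 at 3 h, then 11.06 and 11.27 at 6 h, then 11.49 and 11.01 at 24 h. Of 53 ribosome biogenesis genes none was called between 6 h and 3 h (2 higher and 3 lower with the block), while against 1 h all 53 were higher at 6 h. Against 24 h 8 were higher and 1 lower, 29 and 2 with the block, and 0 to 7 higher with 1 of the 4 arrays left out.

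Genes of DNA replication had their high level at 24 h and not at 6 h. Among the 46 tested, 11 rose and 6 fell from 0 h (17 and 11 with the replicate block). These 11 (23.9%) and 6 (13%) were near or under the 24.1% and 19.1% of all genes, and the list median was 0.13. The higher ones numbered 6 without 6 h replicate 1, and 7 without 6 h replicate 2 or without 0 h replicate 2. Against 24 h none was higher and 41 were lower at 6 h (median -1.45). Pold2, a subunit of DNA polymerase δ, rose early (1.49 ± 0.14), while Rrm2 was 2.93 ± 0.20 lower at 6 h than at 24 h and the replication factor gene Uhrf1 2.81 ± 0.13 lower.

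Of 37 mitosis genes 10 fell at 6 h (27%, against 19.1% of all genes) and 1 rose (2.7%, against 24.1%), with a median of -0.28. At 6 h 33 were lower than at 24 h (median -1.44), where 9.02% of all genes were lower. Bub3 was called higher (0.42 ± 0.15), a call lost without 6 h replicate 2 or 0 h replicate 1, and 2 rose with the replicate block. The 10 became 17 with the replicate block, 3 without 6 h replicate 1 and 4 without 0 h replicate 1. Cdc25b, the phosphatase that starts mitosis, fell by 1.81 and the proliferation marker gene Mki67 by 1.04.

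Regulators of the G1 phase moved in both directions. Cdk6 read 11.84 and 11.77 at 6 h, against 10.48 and 10.05 at 0 h (1.54 ± 0.21), and Ccnd2, the D cyclin of B cell activation, read 12.64 and 12.54 at 6 h, against 11.59 and 11.52 at 0 h (1.03 ± 0.17). Ccnd3 read 9.33 and 9.21 at 6 h, against 10.62 and 10.24 at 0 h (-1.16 ± 0.25), and Ccnd1 fell by 2.24. Arrays of both times were apart in all 4, as they were for 69.1% of all genes tested. Of 9 CDK inhibitors and pocket proteins 4 fell, among them Cdkn1b, the p27 gene (-0.99 ± 0.18), and Rbl2, the p130 gene (-1.19 ± 0.22). Cdkn2b was called higher at 0.38, and that call was lost under 6 of the settings run.

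Immediate early genes were past their peak. Against 1 h 29 of 34 were lower at 6 h and 2 higher (1 without 6 h replicate 1 and none without 1 h replicate 2), while against 0 h 16 rose and 7 fell (4 fell without 0 h replicate 1). Fosb, an AP-1 subunit, read 8.26 and 8.16 at 6 h, against 13.14 and 13.16 at 1 h (-4.94 ± 0.17). Fos read 7.48 and 7.15 at 6 h and had gone under the 0 h values of 8.62 and 8.13 (-1.06 ± 0.17). The Nr4a family of orphan nuclear receptors, sensitive reporters of receptor signalling, was still high: Nr4a3 read 11.80 and 11.70 at 6 h, against 8.23 and 7.87 at 0 h (3.70 ± 0.16), and Nr4a2 and Nr4a1 rose by 3.33 and 2.17. Egr2, a brake on lymphocyte activation, rose by 2.81.

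Myc, the growth regulator, read 13.39 and 13.30 at 6 h, against 11.67 and 11.44 at 0 h (1.79 ± 0.15). Its antagonist Mxd4 read 8.81 and 8.87 at 6 h, against 10.78 and 10.48 at 0 h (-1.79 ± 0.14). Of 13 genes of the Myc, Max and Mxd network Myc was the 1 that rose, and 2 rose with the replicate block. Among 16 heat shock chaperones 6 rose and 1 fell (Dnajb1, not called without 6 h replicate 2 or 0 h replicate 1), with a median of 0.06, and 2 fell with the replicate block. In the comparison of 6 h with 1 h 13 were lower and 1 higher. The 1 became 2 with the block, and 0 without 6 h replicate 1, 6 h replicate 2 or 1 h replicate 2. Hspa1a, the stress-induced Hsp70, was 3.92 ± 0.21 lower at 6 h than at 1 h and stood at -0.02 from 0 h.

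Among MAP kinase phosphatases, which end MAP kinase signals, 3 of 10 rose (30%) and 2 fell (20%), with a median of 0.05, close to the shares of all genes. With the replicate block 4 fell. Dusp4 read 11.52 and 11.42 at 6 h, against 8.53 and 7.86 at 0 h (3.27 ± 0.19), and Dusp5 rose by 1.79. Dusp6, the ERK phosphatase, read 8.55 and 8.44 at 6 h, against 10.64 and 10.48 at 0 h (-2.07 ± 0.16).

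NF-κB subunits and inhibitors were up as a group, with 10 of 17 higher and 1 lower. Tnfaip3, the gene of the inhibitor A20, read 11.10 and 11.01 at 6 h, against 9.72 and 9.33 at 0 h (1.53 ± 0.16). Rel, the c-Rel subunit central to B cell growth, rose by 0.75 and Nfkbid by 1.08. Nfkbia, the IκBα gene, was called at 0.31 ± 0.09 (adjusted p = 0.0137), a call lost without 6 h replicate 2 or 0 h replicate 1. The 1 lower gene was Cyld, a deubiquitinase that restrains the pathway (-0.58 ± 0.18); without 6 h replicate 2, without 0 h replicate 1 or with arrays centred it was not called.

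Targets of NF-κB did not move as 1 block: 18 of 31 rose and 5 fell. The chemokine gene Ccl3 read 12.74 and 12.63 at 6 h, against 10.02 and 9.53 at 0 h (2.91 ± 0.21). Ccl22, a chemokine that draws T cells, rose by 2.63 and was 2.97 ± 0.16 higher than at 1 h. Il10, the gene of an anti-inflammatory cytokine, read 8.35 and 8.50 at 6 h, against 6.08 and 5.74 at 0 h (2.51 ± 0.24). Bcl2l1, the gene of the survival protein Bcl-xL, read 9.73 and 9.89 at 6 h, against 7.28 and 7.53 at 0 h (2.41 ± 0.13).

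Lymphotoxin genes went the other way. Ltb read 9.51 and 9.55 at 6 h, against 12.14 and 12.08 at 0 h (-2.58 ± 0.12, adjusted p = 3.27e-10), and Lta fell by 1.63. Both encode chains of the lymphotoxin that resting B cells use to maintain follicles. The other fallers of the target list were Slamf1 (-2.08 ± 0.22), Vcam1 and, named after its value was seen, the cytokine subunit gene Ebi3 (-0.64 ± 0.16).

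Survival genes were called at shares near those of all genes (24.1% higher and 19.1% lower). Beside Bcl2l1, the caspase-8 regulator gene Cflar rose (1.36 ± 0.25) and the kinase gene Pim1 (1.29 ± 0.15). Bcl2 read 11.09 and 10.89 at 6 h, against 12.36 and 12.23 at 0 h (-1.31 ± 0.15), and Mcl1 read 11.46 and 11.46 at 6 h, against 12.32 and 12.26 at 0 h (-0.83 ± 0.13). Of 13 anti-apoptotic genes 4 rose (30.8%) and 2 fell (15.4%), with a median of 0.02. Among 22 pro-apoptotic genes 5 rose (22.7%) and 6 fell (27.3%), with a median of 0.05. Bcl2l11, the BIM gene, stood at 1.68 ± 0.17 and Bmf at -0.80 ± 0.11.

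The B cell receptor and most genes that carry its signal fell. So did the pan B cell markers (11 of 14, median -1.01), a list that also holds Cd79b and Cd37, so the fall was not particular to the receptor. Over all genes 19.1% fell. All 8 tested receptor chains and coreceptors fell, with a median of -1.07, and 7 did with any 1 array left out. Ighm, the μ heavy chain, read 10.76 and 10.75 at 6 h, against 11.79 and 11.93 at 0 h (-1.10 ± 0.18). Cd79b fell by 0.63, Cd37 by 1.23 and Cr2, the complement receptor CD21, by 1.07. The weakest was Ifitm1 (-0.43 ± 0.17, adjusted p = 0.0491), whose call was lost with single arrays left out.

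Of 32 proximal signalling genes 18 fell and 2 rose, with a median of -0.56. Rasgrp2, an activator of the GTPase Rap1, read 8.57 and 8.36 at 6 h, against 11.87 and 11.49 at 0 h (-3.22 ± 0.19, adjusted p = 3.06e-09). Syk, the kinase that docks on the receptor, read 10.31 and 10.16 at 6 h, against 12.45 and 12.11 at 0 h (-2.05 ± 0.15). Bank1, an adaptor, fell by 2.43 and Pik3cg, a PI3 kinase subunit, by 2.23. These genes were apart between the times by over 1.5 log2 units. Fyn, a Src family kinase, rose (1.17 ± 0.13); the other riser, Pik3ap1 (0.32 ± 0.10), was not called without 6 h replicate 1 or 0 h replicate 2.

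Inhibitory receptors and phosphatases fell alongside, 19 of 31, with 5 higher. Siglecg, a sialic acid receptor that damps the B cell receptor, read 9.69 and 9.57 at 6 h, against 12.42 and 12.16 at 0 h (-2.66 ± 0.19). Cd22 read 10.76 and 10.51 at 6 h, against 13.36 and 13.06 at 0 h (-2.57 ± 0.20). Pirb (-2.46 ± 0.19), Cd300a (-2.03 ± 0.14) and Lair1 (-1.84 ± 0.15) are also receptors of myeloid cells, whose markers fell in the same arrays; their part was not tested. The risers included Pdcd1, the PD-1 gene, which read 8.41 and 8.69 at 6 h, against 7.51 and 7.47 at 0 h (1.06 ± 0.13), and the Ras pathway inhibitor gene Spry1 (0.92 ± 0.13). Pdcd1 was 2.79 ± 0.13 lower at 6 h than at 24 h.

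In the calcium pathway 5 of 21 genes rose and 9 fell; 3 rose without 0 h replicate 2. Orai1, the pore of the store-operated calcium channel, read 10.43 and 10.24 at 6 h, against 9.10 and 8.78 at 0 h (1.39 ± 0.18), and its relative Orai2 fell by 1.16. Calcium pumps of the endoplasmic reticulum split in the same manner: Atp2a2 rose by 0.69, and Atp2a3 read 10.10 and 9.98 at 6 h, against 12.39 and 12.19 at 0 h (-2.25 ± 0.12). Itpr3, a calcium release channel, fell by 1.88, and Rcan1, a calcineurin inhibitor induced through NFAT, rose by 0.75.

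Surface proteins of activation showed both directions, with 11 of 30 higher and 9 lower. Cd69 read 12.67 and 12.55 at 6 h, against 10.73 and 10.60 at 0 h (1.95 ± 0.15), and was 2.62 higher than at 24 h. Cd86, a ligand of the T cell receptor CD28, rose by 1.55, Cd83 by 1.38 and the transferrin receptor gene Tfrc by 1.96. Icosl, a ligand that T follicular helper cells need, read 9.32 and 9.23 at 6 h, against 12.08 and 11.76 at 0 h (-2.65 ± 0.17). Cd55, the complement decay factor, fell by 3.02, Cd1d1 by 2.31 and Fcer2a, the CD23 gene, by 1.01.

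Cytokine receptors fell more often than they rose, with 10 of 27 lower and 4 higher. Beside Il2ra, the decoy receptor gene Il1r2 rose (2.38 ± 0.16), and so did Il15ra (1.31 ± 0.11). Il10ra read 8.79 and 8.89 at 6 h, against 11.41 and 11.13 at 0 h (-2.43 ± 0.16), while Il10, the gene of its ligand, was higher. Il13ra1 fell by 2.76. In the JAK, STAT and SOCS group 10 of 21 rose and 3 fell (1 fell without 6 h replicate 2 or without 0 h replicate 1). Stat5a read 12.18 and 12.34 at 6 h, against 10.29 and 10.17 at 0 h (2.03 ± 0.11), and its feedback target Cish rose by 2.22, Socs2 by 1.65 and Socs1 by 1.30.

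Receptors that place B cells in tissue changed with them. Of 23 trafficking and adhesion genes 12 fell and 5 rose. S1pr1, the receptor for exit from lymphoid organs, fell by 1.26. Klf2, its transcription factor, read 9.64 and 9.48 at 6 h, against 11.19 and 10.92 at 0 h (-1.49 ± 0.17). The integrin gene Itgb7 fell by 2.26 and the cannabinoid receptor gene Cnr2 by 2.15. S1pr3 rose by 1.47 and Ccr6 by 1.09. Cxcr5, the receptor for the follicle chemokine, was not called (-0.11 ± 0.15). Of 10 Rgs genes, regulators of G protein signals, 2 rose (Rgs1 1.97 ± 0.14 and Rgs16 1.53 ± 0.14) and 4 fell (Rgs18 -3.19 ± 0.16). These shares of 20% and 40% stand beside 24.1% and 19.1% of all genes.

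Genes of the quiescent state fell. Of 33 FOXO and quiescence genes 24 fell and 2 rose, with a median of -0.90 (4 rose with the replicate block, and 1 without 0 h replicate 2). Tsc22d3, the GILZ gene, read 8.57 and 8.47 at 6 h, against 10.41 and 10.33 at 0 h (-1.85 ± 0.16), and Sesn1 fell by 1.37 and Btg2 by 0.78. Irs2, an adaptor of insulin signalling, went against the list: it read 11.46 and 11.27 at 6 h, against 9.49 and 9.28 at 0 h (1.98 ± 0.12). Of 8 Gimap GTPase genes 6 fell and none rose, and all 8 fell with the replicate block. Gimap7 read 7.22 and 7.17 at 6 h, against 10.09 and 9.85 at 0 h (-2.77 ± 0.23).

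Antigen presentation and innate sensing fell in part. Of 17 MHC class II presentation genes 9 fell and none rose, among them H2-Oa, which restrains peptide loading (-1.92 ± 0.20), and the class II transactivator gene Ciita (-0.89 ± 0.15). Of 20 Toll-like receptor genes and adaptors 10 fell and 1 rose. Tlr1 read 9.20 and 8.98 at 6 h, against 11.91 and 11.70 at 0 h (-2.71 ± 0.15), and Tlr4 fell by 2.30 to values of 6.57 and 6.50. The 1 riser was Tlr7, the sensor of single-stranded RNA (0.85 ± 0.27, adjusted p = 0.0168), not called without 6 h replicate 1 or 0 h replicate 2, and 3 rose with the replicate block. Dendritic cells and macrophages also express genes of both lists, and the sums of their markers were lower at 6 h, as given above.

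Among 34 transcription factors of B cell identity and differentiation 6 rose and 15 fell. Irf4, which drives activated B cells towards switching and plasma cells, read 12.79 and 12.59 at 6 h, against 11.31 and 11.01 at 0 h (1.52 ± 0.14). Batf rose by 1.31 and Zbtb32 by 1.33. Bcl11a read 10.17 and 9.97 at 6 h, against 12.12 and 11.95 at 0 h (-1.96 ± 0.21), Ets1, which holds back plasma cell formation, fell by 1.58 and Bcl6, the germinal centre factor, by 0.98. The plasma cell factors Prdm1 (0.03 ± 0.28) and Xbp1 (-0.17 ± 0.14) were not called.

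TAK1, the kinase encoded by Map3k7, links the receptor to NF-κB and MAP kinases, and the same 6 h change was measured in TAK1-deleted cells. Map3k7 itself read 10.70 and 10.64 in TAK1-deleted and 10.66 and 10.57 in wild type cells at 6 h, so its probe set did not separate the genotypes; which part of the gene was deleted is not given in the labels. In TAK1-deleted cells 4289 genes (35.8%) were called, and 2218 (18.5%) were higher and 2071 (17.3%) lower at 6 h than at 0 h. The replicate block gave 3380 higher at 6 h in these cells. The difference between the genotypes in that change was called for 34 genes (0.284%), 11 higher (0.0919%) and 23 lower (0.192%) in TAK1-deleted cells. With the replicate block 772 were called, 217 higher and 555 lower. Without a single wild type array 1 (6 h replicate 1), 4 (6 h replicate 2), 8 (0 h replicate 1) or 18 (0 h replicate 2) were called, and 14 without TAK1-deleted 6 h replicate 1. Without TAK1-deleted 6 h replicate 2 limma called 0 (810 at an unadjusted p below 0.05), and likewise 0 without TAK1-deleted 0 h replicate 1 (800).

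Among these 34 genes Il10 and Bcl2l1 rose less in TAK1-deleted cells. Il10 read 6.25 and 5.93 at 6 h in TAK1-deleted cells, with 5.81 and 5.80 at 0 h, against the wild type values above (difference -2.23 ± 0.33, adjusted p = 0.00965). Bcl2l1 read 8.73 and 8.79 at 6 h in TAK1-deleted cells, with 7.41 and 7.56 at 0 h (difference -1.14 ± 0.18, adjusted p = 0.0121). Slc7a5 (-0.83 ± 0.14), Cish (-1.16 ± 0.22) and Il15ra (-0.81 ± 0.16) also rose less. Calls among the 34 depended on single arrays, as the counts above show.

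In others the 0 h arrays differed instead. Reep6 read 10.97 and 10.30 at 6 h in TAK1-deleted cells, against 11.11 and 10.68 in wild type, but 10.77 and 10.17 at 0 h in TAK1-deleted cells, against 8.38 and 8.11 in wild type. Asns, the asparagine synthetase, had the same form, with 9.82 and 9.72 at 6 h in TAK1-deleted cells but 10.35 and 9.64 at 0 h, against 9.85 and 9.78 in wild type at 6 h, with 8.19 and 7.93 at 0 h.

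Interferon-induced genes, like some other lists, had a smaller rise in TAK1-deleted cells by their median, with no gene called without the replicate block. The change at 6 h had a median of 0.35 in TAK1-deleted cells, with 19 of 48 higher and 5 lower, against 0.94 in wild type. The lower count became 1 without TAK1-deleted 6 h replicate 2, and likewise 1 without TAK1-deleted 0 h replicate 1. The difference had a median of -0.59, against -0.01 over all genes. In the fit without the block 0 of 48 were called, and with the replicate block 25 were called lower. The shift was not particular to this list. Medians of the difference were -0.63 for mitosis, -0.42 for ribosome biogenesis and -0.37 for DNA replication genes, but 0.33 for FOXO and quiescence genes. With the block 17 of 37 mitosis and 19 of 53 ribosome biogenesis genes were lower, and 8 of 33 quiescence genes higher. Ifit1 read 9.96 and 9.71 at 6 h in TAK1-deleted cells and 10.72 and 10.58 in wild type. Cholesterol genes had a median change of 1.04 in TAK1-deleted cells, against 1.11 in wild type, and none of the 23 was called for a difference, with the block or without it.

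**Figure D5:**
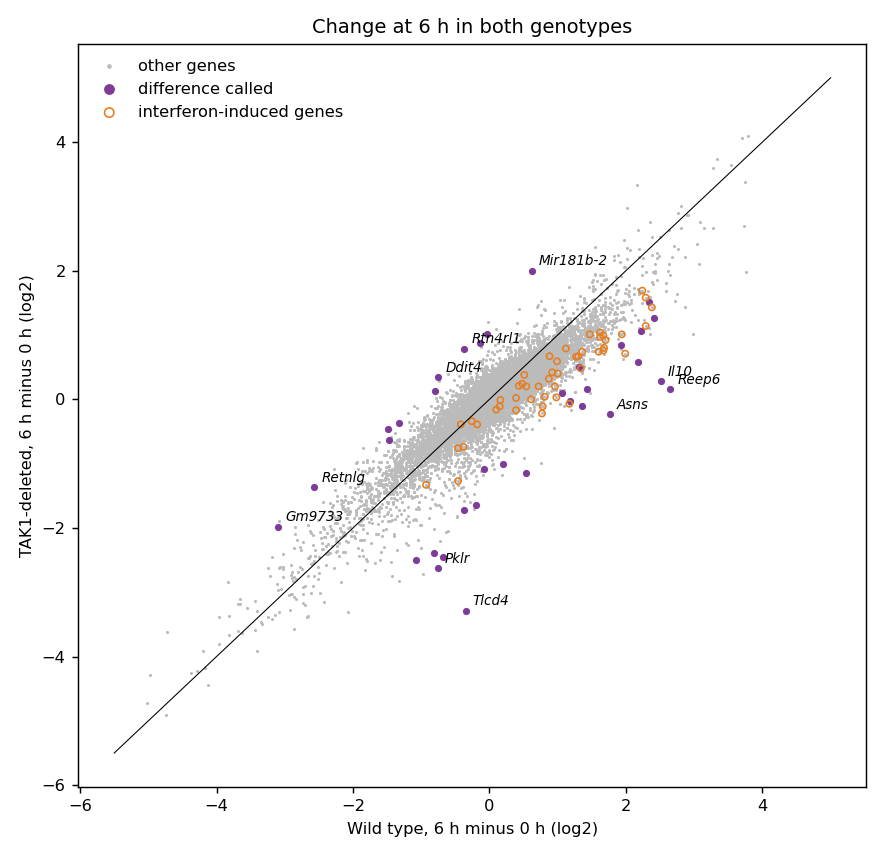
Change at 6 h (6 h minus 0 h, log2) in TAK1-deleted cells on the y axis and in wild type cells on the x axis, 1 point per gene. Purple points are the 34 genes called for a difference, orange rings are the 48 interferon-induced genes and the line marks equal change. Il10, Reep6 and Asns lie under the line at the right, and most orange rings lie under it.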

How the data were processed

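The series holds 20 arrays of splenic B cell RNA (Affymetrix Mouse Gene 1.0 ST), in 10 groups of 2. The authors deposited log2 values; the submitters' processing notes name RMA and version 1.0 of Expression Console. A genome build for the probe sets is not given in the sources used here. The table of 35556 probe sets (values 3.64 to 14.68, array medians 7.37 to 7.52) was used as deposited.

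Of the probe sets 21789 have 1 gene symbol in the platform annotation, 1621 several and 12146 are not listed. Kept were 20326 probe sets with a value of 7.45, the overall median, or more in 2 or more arrays; those without a single symbol were left out (7191), and the probe set with the highest mean stood for a gene, which left 11968 genes.

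A model with 1 mean per group was fitted to all 20 arrays with limma 3.58.1 (R 4.3.3) (eBayes with trend, 10 residual degrees of freedom), two-sided, with Benjamini-Hochberg adjustment within each of 6 contrasts. The procedure was run on simulated arrays with independent noise. Those lack the correlation between replicates given next, so the simulation does not cover it. Deviations of same-numbered replicates correlated in all 45 pairs of groups (0.191 to 0.769; 0.52 for wild type 6 h and 0 h), so the numbers pair the samples; the pairing comes from the data. Fits with the replicate as a block are given where they change a call or move a count by over 1.5 times.

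Gene lists (70) and named genes were chosen with earlier results of these data known. Named were the 15 largest called rises and 15 falls without overlap, up to 6 called members of each list with the largest change and up to 3 going against it, all members of lists of 12 or fewer, a set of fixed genes, and 5 rises and 5 falls of each other contrast, 486 in all for 6 h minus 0 h. The text gives a part of them, picked after the values were seen. Promoters were searched for 8 strings; sequences are from RefSeq. Alternatives were other filters, scalings, probe set rules, sets of arrays, the block, a 2-fold threshold and leaving out each array.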

Additional observations from a re-analysis of the deposited data

Results flagged for a closer look

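The change at 6 h differed between the genotypes, by the test of the difference itself, for 34 genes, and these are given as TAK1-deleted minus wild type in log2 units. The largest positive differences were in Mir181b-2 (1.38), Retnlg (1.20), Rtn4rl1 (1.16), Gm9733 (1.12) and Ddit4 (1.08). The largest negative ones were in Tlcd4 (-2.94), Reep6 (-2.49), Il10 (-2.23), Asns (-1.99) and Pklr (-1.87).

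Ddit4, an inhibitor of mTOR complex 1, read 9.67 and 9.83 at 6 h in TAK1-deleted cells, with 9.40 and 9.42 at 0 h, against 8.96 and 9.20 in wild type cells at 6 h, with 9.84 and 9.82 at 0 h. It was higher at 6 h than at 0 h in the TAK1-deleted arrays and lower in the wild type arrays. Mir181b-2 read 8.25 and 8.39 at 6 h in TAK1-deleted cells, against 6.86 and 6.87 in wild type, with 0 h values of 6.31 and 6.34 against 6.16 and 6.34. Pklr, the pyruvate kinase of liver and red cells, read 11.01 and 10.48 at 0 h in TAK1-deleted cells, against 8.25 and 8.31 in wild type, and Tlcd4 read 9.69 and 8.72 against 5.96 and 5.67. Retnlg, a neutrophil gene, was lower at 0 h in TAK1-deleted cells (8.81 and 8.79) than in wild type (9.98 and 9.73). Their 6 h values lay closer together, with Pklr at 8.11 and 8.13 against 7.44 and 7.60, Tlcd4 at 5.94 and 5.89 against 5.40 and 5.52, and Retnlg at 7.48 and 7.37 against 7.26 and 7.29. What made the 0 h arrays differ was not tested.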

How the results depend on the processing

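Of the 434 called genes named by rule for 6 h minus 0 h, 382 kept their call and direction in every setting run on them, 52 lost the call in at least 1, and none of the 486 reversed. The count for 6 h minus 0 h stayed within 1.5 times of 5169 in every setting except the 2-fold threshold (1761), which was run on counts and not on named genes, with 6829 under the replicate block and 3947 to 4479 with 1 array left out; the block ended no call among named genes and added 14. With the 2-fold threshold the other counts were 1611 (against 1 h), 162 (3 h), 624 (24 h) and 1248 (TAK1-deleted). The block gave 3100 against 3 h, 4550 against 24 h and 772 for the difference between genotypes, and repeated quantile normalization 1738 against 3 h and 280 for the genotypes. Centring arrays on their medians gave 5 higher and 20 lower for the genotypes, against 11 and 23. With 1 array left out the counts ranged over 4194 to 5007 (1 h), 291 to 504 (3 h), 1299 to 1705 (24 h), 3188 to 3508 (TAK1-deleted) and 0 to 36 (genotypes; limma's 0 had 800 and 810 genes at an unadjusted p below 0.05). The cause of these shifts was not tested; a left-out array leaves 1 in its group, assumed to vary like the others.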

Other observations

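Gene groups outside the comparisons above also held called genes at 6 h in wild type cells. The shares higher and lower were 47.4% and 21.1% for p53 targets and 60% and 13.3% for the ATF4 stress response. They were 15.4% and 34.6% for lysosome and autophagy genes, and 24.1% and 19.1% over all genes. Lysosome and autophagy genes did not move as 1 group, with a median of 0.09 against 0.05 for all genes. Of 19 p53 target genes 9 rose and 4 fell, with the polo-like kinase gene Plk2 at 2.01 ± 0.20, Phlda3, an inhibitor of AKT, at 1.53 ± 0.13 and the nuclease gene Aen at 1.46 ± 0.15. Of 15 genes of the ATF4 stress response 9 rose and 2 fell, with the alanine transaminase gene Gpt2 at 1.38 ± 0.14 and the mTOR inhibitor gene Ddit4 at -0.75 ± 0.12, and 1 fell without 6 h replicate 1 or without 0 h replicate 2. Of 26 lysosome and autophagy genes 4 rose and 9 fell. Gla, the lysosomal α-galactosidase, read 9.94 and 10.01 at 6 h, against 8.00 and 7.88 at 0 h (2.04 ± 0.13), while the protease gene Ctsb fell by 1.73, a gene that is also on the macrophage list.

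Markers of B cell subsets did not move as 1 group. Of 12 marginal zone markers 8 fell and 2 rose, with Asb2 at -2.44 ± 0.14 and S1pr3 at 1.47 ± 0.11. Of 8 B-1 markers 3 rose (37.5%) and 1 fell (12.5%), against 24.1% and 19.1% of all genes. They were led by the scramblase gene Plscr1 (1.97 ± 0.13), and their summed signal was 5670 to 5960 at 6 h, against 3510 to 3970 at 0 h. Zbtb32, given above among the differentiation factors that rose, is also a B-1 marker here. More B-1 cells and more RNA per cell cannot be told apart in these sums. The cells had been purified by depletion of CD43-bearing cells, and the CD43 gene Spn is on this B-1 list. How many B-1 cells were left was not tested. Of 8 plasma cell markers 1 rose, Irf4, and 3 fell, with the B cell chaperone gene Mzb1 at -1.20 ± 0.13 and Jchain, the joining chain of secreted antibody, at -0.88 ± 0.14. Plasma cell sums were 13900 to 15100 at 6 h, against 13200 to 14500 at 0 h.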
